A study of Mus musculus with 15 samples.

Results

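The variable (Trav) and joining (Traj) segments of the T cell receptor alpha chain were followed as gene rows of an RNA sequencing count table of sorted mouse thymocytes. The members were every row whose symbol begins with Trav or Traj and that held at least 10 counts summed over the 15 libraries. This gave 149 of the 53762 genes in the table, 89 of 130 Trav rows and 60 of 60 Traj rows. The 41 Trav rows under the minimum included 21 with no count. The rows just under it held 8 counts (Trav5n-4 and Trav15d-2-dv6d-2), and those just inside held 10 (Trav6-6) and 11 counts (Trav13d-2 and Trav7n-6). The members were thus chosen by their summed counts, and that they are present is a description. The main measure was the share of a segment, its counts as a percentage of all counts of Trav members (or of Traj members) in the same library. A share describes how counts were spread over the segments, called use below, and not how much receptor RNA there was. A count on a Traj row need not come from a finished receptor message, so Traj use below means counts alone. Shares sum to 100 within a library, so a segment that takes a larger share lowers the others.

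All 15 libraries came from the thymus of C57BL/6 mice, 3 for each of 5 sorted populations, in the gate CD44lo TCRbhi CD24lo CD69lo. Per the design text the mutant cells developed in chimeras, irradiated CD45.1+ B2m-/- hosts that had received mutant and wild-type (WT) marrow together. The WT CD4 SP cells (single-positive, CD4+CD8-) were CD45.1+CD45.2+ and are labelled as from B2m-/-, animals without MHC class I on their own cells. WT CD8 SP cells, CD4-CD8+, were CD45.1+CD45.2+ and are labelled as from I-Ab-/-, animals without conventional MHC class II on their own cells. The other 3 populations were CD45.2+ Thpokfl/fl Runx3fl/dYFP Cd4-Cre+ cells from B2m-/- hosts. They were CD8 SP cells without Thpok-RKF (Thpok-RKF- CD8 SP), CD4+CD8+ cells without it (Thpok-RKF- CD4+CD8+) and CD4+CD8+ cells with it (Thpok-RKF+ CD4+CD8+). Thpok-RKF is a name that the labels do not spell out. Cd4-Cre removes floxed sequence in thymocytes once Cd4 is active, so the mutant cells had passed their early stages before the deletion. Cell type and host could not be told apart for WT CD8 SP cells, which alone came from I-Ab-/- animals. Nothing in the labels states whether the 3 replicates of a group were different mice or different sorts. The tests therefore gauge the spread among these libraries alone, and that spread may be technical.

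An alpha chain gene is assembled in CD4+CD8+ thymocytes, when the recombinase made by Rag1 and Rag2 joins a variable segment to a joining segment, and the joined exon is spliced to the constant region Trac. Joining can be repeated on the same chromosome, using variable segments ever farther from the joining array and joining segments ever nearer to Trac. The receptor then decides fate: cells whose receptor binds MHC class II normally become CD4 helper cells through the factor Thpok, and cells whose receptor binds MHC class I become CD8 cytotoxic cells through Runx3. The variable segment encodes the part of the chain with the first and second antigen-contacting loops, which also touch MHC. The comparisons below ask which segments distinguished the cells selected in the different hosts.

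In C57BL/6 mice a large block of Trav segments is repeated in the locus, and repeated copies carry the letters d and n. The segments on which the results turn are therefore shown next to their copies. They are the last 300 coding bases of GENCODE M21 transcripts on the build GRCm38, 5′ to 3′. The deposited files use mm39, so no coordinates are given. Capitals mark bases that differ from either of the other 2 copies of the set. The first 3 are the Trav16 copies, which include the called segment with the largest log2 difference in share between the WT groups.

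Trav16: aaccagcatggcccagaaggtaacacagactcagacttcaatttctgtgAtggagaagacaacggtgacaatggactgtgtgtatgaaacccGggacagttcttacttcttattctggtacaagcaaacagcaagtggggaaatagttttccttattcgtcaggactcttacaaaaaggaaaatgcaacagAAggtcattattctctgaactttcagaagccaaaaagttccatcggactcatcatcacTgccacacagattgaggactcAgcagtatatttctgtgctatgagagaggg
Trav16n: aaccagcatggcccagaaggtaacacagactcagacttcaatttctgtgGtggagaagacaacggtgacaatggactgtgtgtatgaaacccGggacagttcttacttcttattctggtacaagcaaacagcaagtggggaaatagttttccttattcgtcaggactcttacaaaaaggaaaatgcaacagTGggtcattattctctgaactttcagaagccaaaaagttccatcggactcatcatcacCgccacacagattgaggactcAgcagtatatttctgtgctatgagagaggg
Trav16d-dv11: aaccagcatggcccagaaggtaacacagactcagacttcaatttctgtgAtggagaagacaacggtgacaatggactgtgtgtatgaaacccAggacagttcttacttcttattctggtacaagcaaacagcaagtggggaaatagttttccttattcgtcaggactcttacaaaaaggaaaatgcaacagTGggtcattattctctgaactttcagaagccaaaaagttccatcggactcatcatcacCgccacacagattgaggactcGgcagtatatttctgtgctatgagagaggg

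Trav16 was 97.7% identical to Trav16n and 96.6% identical to Trav16d-dv11 over the whole aligned coding sequence. The next 3 are the copies of Trav14-3, the set of near-identical segments with the clearest shift in the other direction.

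Trav14d-3-dv8: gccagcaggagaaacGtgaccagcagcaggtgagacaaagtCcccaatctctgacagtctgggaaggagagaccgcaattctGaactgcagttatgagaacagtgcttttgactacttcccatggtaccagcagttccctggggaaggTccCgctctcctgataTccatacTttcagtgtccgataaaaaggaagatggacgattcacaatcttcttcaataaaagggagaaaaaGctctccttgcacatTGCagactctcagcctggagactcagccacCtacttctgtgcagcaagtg
Trav14n-3: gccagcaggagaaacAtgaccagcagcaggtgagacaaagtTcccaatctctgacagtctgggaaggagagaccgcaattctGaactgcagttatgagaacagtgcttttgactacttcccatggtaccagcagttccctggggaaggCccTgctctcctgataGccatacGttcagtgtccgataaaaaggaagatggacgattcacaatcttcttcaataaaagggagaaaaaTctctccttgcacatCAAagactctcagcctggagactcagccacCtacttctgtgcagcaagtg
Trav14-3: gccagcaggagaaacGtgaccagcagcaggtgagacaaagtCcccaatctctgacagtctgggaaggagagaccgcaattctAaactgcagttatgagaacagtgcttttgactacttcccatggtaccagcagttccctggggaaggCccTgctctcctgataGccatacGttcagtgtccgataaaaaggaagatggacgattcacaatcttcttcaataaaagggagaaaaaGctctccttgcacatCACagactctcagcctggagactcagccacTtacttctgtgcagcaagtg

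Trav14d-3-dv8 was 96.7% identical to Trav14n-3 and 97.2% identical to Trav14-3. Against Trav16, Trav14d-3-dv8 was 53.0% identical, far less alike than copies within a family. Traj18 and Traj33 are shown as the joining segments of the invariant receptors of NKT and MAIT cells. Capitals mark the motif that encodes the conserved phenylalanine (or tryptophan)-glycine turn of the joining segment.

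Traj18: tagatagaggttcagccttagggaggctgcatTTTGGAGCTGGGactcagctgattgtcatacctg
Traj33: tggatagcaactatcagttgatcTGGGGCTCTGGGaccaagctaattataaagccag

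The motif was searched on the coding strand as TTT or TTC for phenylalanine or TGG for tryptophan, then GG, any 4 bases and GG, and 45 of 60 Traj sequences (75.0%) held it. A sequence was found for 128 of 130 Trav rows and 60 of 60 Traj rows. Copies limit what can be counted. In 38 Trav segments no stretch as long as 1 read of 101 bases was unique among Trav and Traj transcripts, and 33 of these were under the minimum of 10 counts, with at most 40 counts in any. Of 70 segments with at least 50% unique stretches, 68 were members, with a median of 2864 counts. The labels do not say how reads that fit several copies were treated. A summary line for alignments that were not unique held 3.67% to 4.43% of counted read pairs per library, and 17 of the 38 segments had no count. Rows of near-identical copies may thus lack reads that fit several copies, and the split of counts between them is uncertain. Sums over families are given beside the segments. The other mate of a read pair can settle some of these cases, which was not tested.

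The libraries held 37311823 to 48607260 gene counts, of which 12884 to 32393 were on Trav and 2670 to 5707 on Traj members. Of the 149 members, 132 passed the filter on low counts (76 Trav and 56 Traj), which keeps a gene with enough counts in the size of the smallest group. A segment that passed only through the group in which it was high had to differ, so counts over the tested segments are descriptions. T cell genes marked every library: Trac ran from 1062 to 2576 CPM (counts scaled to the gene total and, for single genes, by TMM). The summed level of the B cell list ran from 41.1 to 45.7 CPM in WT CD8 SP libraries and from 5.24 to 18.0 in the others. Lyz2, a myeloid gene, reached 28.4 CPM in WT CD4 SP replicate 1 and 24.5 CPM in Thpok-RKF+ CD4+CD8+ replicate 1, with at most 4.43 CPM elsewhere. The part of these markers in the results was not tested.

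Usage was broad. The 10 most used Trav segments held 38.0% of Trav counts and the 10 most used Traj segments 59.6% of Traj counts, as the mean of the 5 group means. The most used variable segments were Trav14-1 with a mean share of 5.07%, Trav7-4 with 4.82%, Trav14-2 with 4.15%, Trav14n-3 with 4.01% and Trav3-3 with 3.84%. A share of at least 1% was reached by 35 of 89 Trav and 22 of 60 Traj members. The evenness of use was alike across libraries: the effective number of Trav segments (the exponential of the Shannon entropy of the shares) ran from 45.5 to 52.7 and that of Traj segments from 28.1 to 34.8. The total of Trav counts followed Trac. It was 606 ± 93.4 CPM (of gene counts, not TMM-scaled) in WT CD4 SP, 382 ± 32.9 in WT CD8 SP, 358 ± 8.02 in Thpok-RKF- CD8 SP, 401 ± 24.4 in Thpok-RKF- CD4+CD8+ and 431 ± 76.2 in Thpok-RKF+ CD4+CD8+ cells (SD, n = 3 each). Per 100 Trac counts, however, every library held between 28.0 and 33.4 Trav counts. In a sorted population, fewer cells of a type and less RNA per cell cannot be told apart.

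Between the WT populations, the CD8 SP cells used the Trav16 family far more than the CD4 SP cells, and the CD4 SP cells used the copies of Trav14-3, Trav7n-4 and Trav9-1 more. Of the 76 Trav segments tested, 11 took a higher share in WT CD4 SP than in WT CD8 SP cells and 9 a lower one. That is 20 of 76 by edgeR's quasi-likelihood F test with Benjamini-Hochberg adjustment over all 16550 genes (threshold 0.05), where 18.0% of all genes tested were called, 7.64% higher and 10.4% lower. At an unadjusted p under 0.05 there were 27 (30.5% of all genes), and DESeq2 called 24 (23.7% of all genes). Among the segments called, Trav16 had the largest log2 difference and Trav16n the largest difference in percentage points. The share of Trav16 was 0.894%, 0.926% and 1.00% in the WT CD4 SP libraries and 3.55%, 3.65% and 3.69% in the WT CD8 SP libraries, so the groups lay far apart. The log2 difference in share, WT CD4 SP minus WT CD8 SP, was -1.95 ± 0.19 (SE, edgeR adjusted p = 5.71e-06). Trav16n took 1.68%, 1.90% and 1.58% in WT CD4 SP and 6.02%, 5.77% and 4.96% in WT CD8 SP libraries, a log2 difference of -1.70 ± 0.17 (edgeR adjusted p = 9.15e-06). The copy Trav16d-dv11 moved the same way, from 0.488-0.646% to 1.11-1.33%, with a log2 difference of -1.16 ± 0.30 (edgeR adjusted p = 0.0142). All 3 copies lay higher in every WT CD8 SP library than in any WT CD4 SP library, where 36.2% of all genes tested did not overlap between these groups.

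Trav12-2 and Trav6-3 were the other named segments that fell in CD4 SP cells with a log2 difference over 1 in size. Of the segments called lower that the naming rule left out, Trav2 differed by -1.12, Trav12-1 by -0.98 and Trav8n-2 by -0.78 (edgeR adjusted p = 0.0205, 0.014 and 0.0123), named after their values were seen. The share of Trav12-2 was 2.51%, 2.65% and 2.25% in WT CD4 SP and 6.26%, 5.25% and 5.25% in WT CD8 SP libraries. Its log2 difference was -1.18 ± 0.17 (edgeR adjusted p = 0.00031), and the groups did not overlap. Trav6-3 took 0.646%, 0.465% and 0.435% against 1.25%, 1.05% and 1.43%, a log2 difference of -1.27 ± 0.29 (edgeR adjusted p = 0.00736). It shares all but 15% of its read-length stretches with other segments, and its copy Trav6d-3 was -0.87 ± 0.49 on the same scale (edgeR adjusted p = 0.256).

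**Figure D1:**
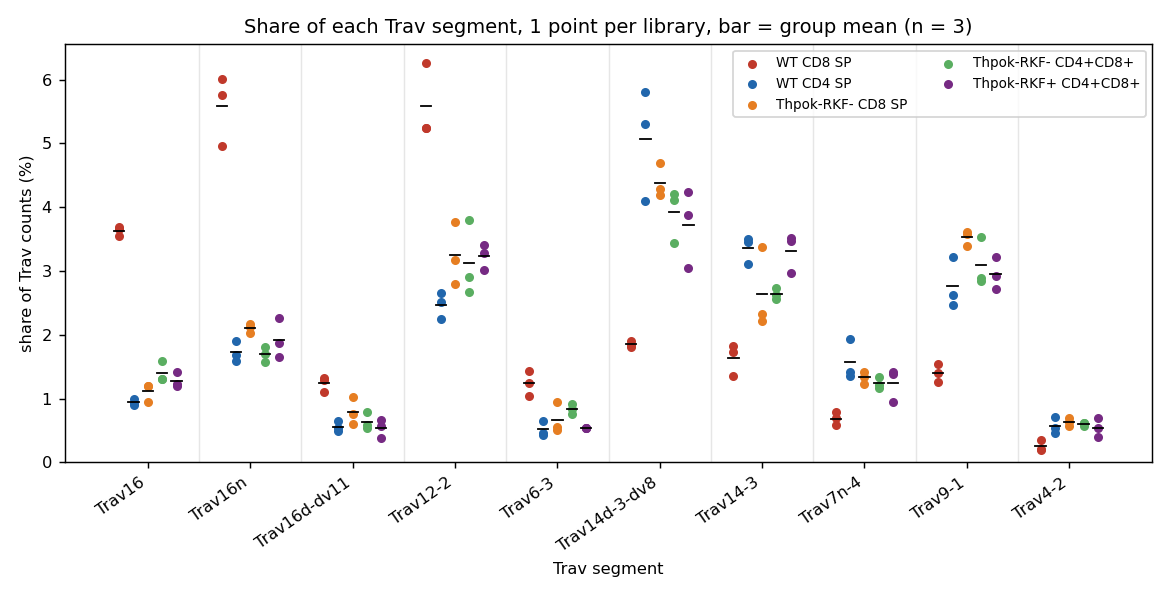
Share of 10 Trav segments in each of the 15 libraries. The vertical axis is the percentage of all Trav counts of the library, colours mark the 5 groups, and bars are means of 3 libraries. The red points of WT CD8 SP stand apart upward for the Trav16 copies, Trav12-2 and Trav6-3 and downward for Trav14d-3-dv8, Trav14-3, Trav7n-4 and Trav9-1, and the mutant groups lie nearer to WT CD4 SP.

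The segments favoured in WT CD4 SP cells were led by Trav14d-3-dv8. It took 4.11%, 5.31% and 5.80% in WT CD4 SP and 1.81%, 1.90% and 1.83% in WT CD8 SP libraries. The log2 difference was 1.46 ± 0.17 (edgeR adjusted p = 4.69e-05), with no overlap between the groups. Its copies moved with it: Trav14-3 by 1.04 ± 0.19 (edgeR adjusted p = 0.00151) and Trav14n-3 by 0.88 ± 0.17 (edgeR adjusted p = 0.002). Trav14-1 and Trav14-2, the most used members of the family, differed less, with 0.22 ± 0.14 and 0.37 ± 0.16 (edgeR adjusted p = 0.292 and 0.127). The shift in this family was thus called for the copies of Trav14-3 and not for Trav14-1 or Trav14-2, and the difference between those members was not tested.

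Trav7n-4, Trav9-1 and Trav4-2 completed the leading rises. Trav7n-4 took 1.35%, 1.93% and 1.41% in WT CD4 SP and 0.691%, 0.583% and 0.783% in WT CD8 SP libraries, a log2 difference of 1.19 ± 0.23 (edgeR adjusted p = 0.00263). Trav9-1 took 3.22%, 2.63% and 2.47% against 1.40%, 1.26% and 1.54%, a log2 difference of 0.99 ± 0.17 (edgeR adjusted p = 0.000911). Trav4-2, a segment with a mean share of 0.520%, differed by 1.19 ± 0.33 (edgeR adjusted p = 0.0229). None of the 3 overlapped between the WT groups. Trav7-4 rose by 0.67 ± 0.15 (edgeR adjusted p = 0.00753) from a mean of 3.47% to 5.53%. Among the other Trav9 members that could be tested, Trav9d-1 alone passed, with 0.82 ± 0.27 (edgeR adjusted p = 0.0453). Trav9-2, for example, took 1.90% to 2.19% in WT CD4 SP and 2.173% to 2.33% in WT CD8 SP libraries.

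Sums over copies do not depend on how counted reads were split between them. If reads that fit several copies were left out, the sums lack them too, which was not tested. The Trav16 family held 3.07% to 3.36% of Trav counts in WT CD4 SP and 9.98% to 10.7% in WT CD8 SP libraries, a log2 difference of -1.70 ± 0.15 (edgeR adjusted p = 2.17e-06). The Trav12 family held 4.69% to 5.94% against 8.93% to 10.6%, with -0.85 ± 0.14 (edgeR adjusted p = 0.000581). The Trav14 family held 20.7% to 25.6% against 13.2% to 14.8%, with 0.71 ± 0.12 (edgeR adjusted p = 0.000633). The ranges of these 3 families did not overlap between the WT groups. The Trav8 family took the smaller share in CD4 SP cells, with -0.43 ± 0.12 (edgeR adjusted p = 0.0221), but its level per library was 0.25 higher on the log2 scale. The same holds for Trav3-3, with a share difference of -0.49 ± 0.15 (edgeR adjusted p = 0.0367) and a level difference of 0.15.

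By construction, the difference in level is that in share plus that in the Trav total. With every gene scaled by library size alone (TMM), the median log2 difference of the Trav segments tested moved from 0.08 to 0.74, the median of all genes tested being -0.03. The calls then became 24 higher and 2 lower in WT CD4 SP cells (18.0% of all genes being called by level), Trav16 and Trav16n being the 2 lower. Of the 14 segments called here and named by the rule, 10 stayed past the threshold whichever single library was left out. Trav9d-1 was lost in 6 of 6 such fits, Trav3-3 in 5, and Trav4-2 and Trav16d-dv11 in 3 each, with edgeR adjusted p up to 0.15, 0.12, 0.104 and 0.0583. The number called was 11 without WT CD4 SP replicate 3, 13 without WT CD8 SP replicate 3 and 11 without the filter on low counts.

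**Figure D2:**
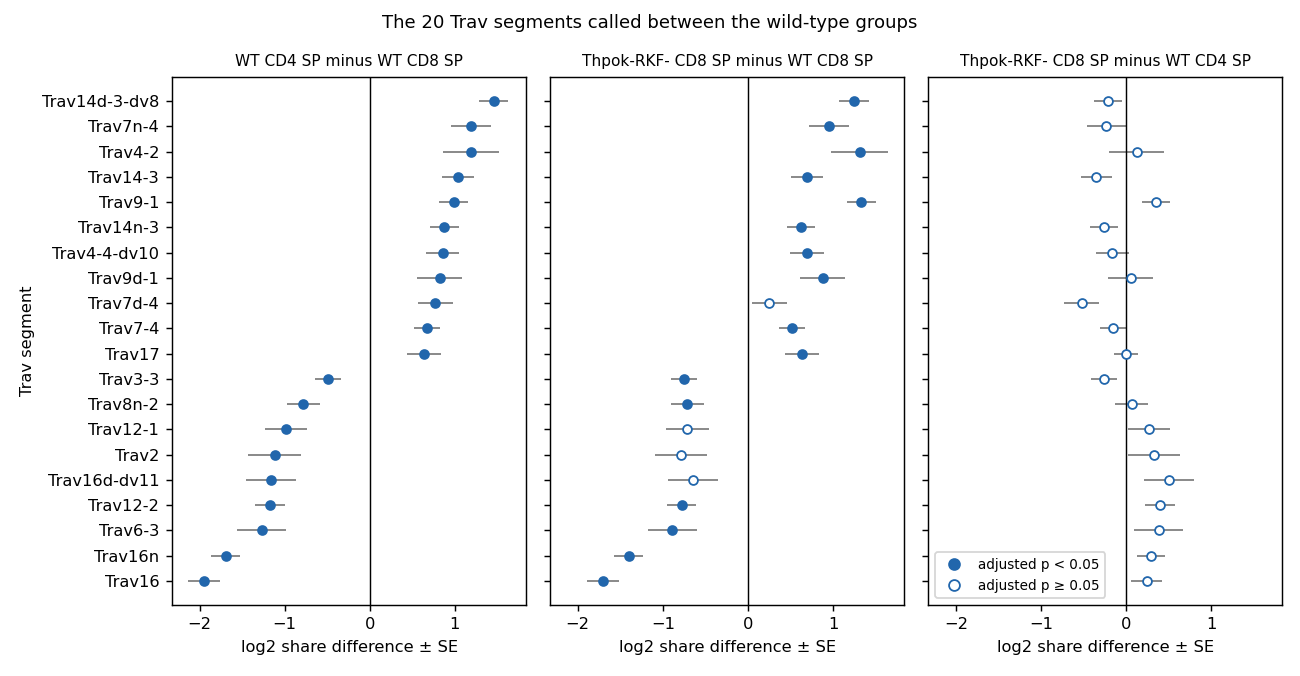
Log2 difference in share with its SE for the 20 Trav segments called between the WT groups, in 3 comparisons (panels). Filled points passed an edgeR adjusted p of 0.05. The left panel chose the segments and shows its calls as a description, and the middle panel shares the WT CD8 SP libraries with it. In the right panel, Thpok-RKF- CD8 SP against WT CD4 SP, no point is filled.

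The mutant CD8 SP cells, which lack Thpok-RKF, carry CD8 as WT CD8 SP cells do but came from B2m-/- hosts. Cd8a was 1171 to 1657 CPM in them and 1181 to 1642 CPM in WT CD8 SP libraries. Their variable segments differed from those of WT CD8 SP cells at, among others, Trav16, Trav16n, Trav9-1 and Trav14d-3-dv8. Of 76 Trav segments tested, 11 took a higher and 9 a lower share than in WT CD8 SP cells (edgeR's quasi-likelihood F test with Benjamini-Hochberg adjustment), where 18.4% of all genes tested were called, 7.82% higher and 10.6% lower. At an unadjusted p under 0.05 there were 28 (29.8% of all genes), and DESeq2 called 22 (24.3% of all genes). This comparison and the one between WT groups share the WT CD8 SP libraries, so a likeness between their lists is built in, and the values are only set side by side. The share of Trav16 was 1.195%, 0.948% and 1.202% in Thpok-RKF- CD8 SP libraries, a log2 difference from WT CD8 SP of -1.70 ± 0.19 (edgeR adjusted p = 1.38e-05). Trav16n took 2.04%, 2.13% and 2.171%, with -1.40 ± 0.17 (edgeR adjusted p = 3.69e-05). Every one of these values lay below the lowest WT CD8 SP library.

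On the other side, Trav9-1 took 3.58%, 3.40% and 3.62% in Thpok-RKF- CD8 SP libraries, a log2 difference of 1.33 ± 0.17 from WT CD8 SP (edgeR adjusted p = 5.47e-05). Trav14d-3-dv8 took 4.28%, 4.19% and 4.69%, a log2 difference of 1.25 ± 0.17 (edgeR adjusted p = 0.000131). Neither overlapped with WT CD8 SP, where 39.7% of all genes tested did not overlap. Trav3-3, one of the 5 most used segments, took 3.21%, 2.93% and 2.74% against 4.94%, 4.90% and 5.07%, a log2 difference of -0.75 ± 0.15 (edgeR adjusted p = 0.00292). Trav12-2 took 3.77%, 2.80% and 3.18%, with -0.78 ± 0.17 (edgeR adjusted p = 0.00534). As families, Trav16 held 3.83% to 4.39% (log2 difference -1.38 ± 0.15, edgeR adjusted p = 1.08e-05), Trav9 held 8.93% to 10.3% against 6.22% to 6.85% (0.58 ± 0.12, edgeR adjusted p = 0.00321), and Trav14 held 19.2% to 21.2% (0.49 ± 0.12, edgeR adjusted p = 0.00768). These families and segments kept their direction as levels per library. The split of calls by level was 5 higher and 10 lower, with 18.4% of all genes called.

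This count leaned on single libraries more than the one between WT groups. It was 10 without WT CD8 SP replicate 1, 10 without replicate 2 and 9 without replicate 3, and 13 without any one of the 3 Thpok-RKF- CD8 SP libraries. Trav16, Trav16n, Trav9-1, Trav14d-3-dv8, Trav3-3 and Trav12-2 passed in 6 of 6 such fits. The other 7 segments named by the rule did not, among them Trav4-2, Trav7n-4 and Trav14-3, with edgeR adjusted p up to 0.0704, 0.0562 and 0.109.

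Against WT CD4 SP cells, which came from the same kind of host, the mutant CD8 SP cells showed no called difference in Trav use. The edgeR quasi-likelihood F test called 0 of 76 Trav segments, where 17.4% of all genes tested were called in this comparison. At an unadjusted p under 0.05 there were 5 (31.4% of all genes), DESeq2 called 2 (24.2% of all genes), Trav12-3 and Trav1, and the smallest edgeR adjusted p was 0.068 for Trav12-3. The median size of the log2 difference in share over the Trav segments tested was 0.25, with a median SE of 0.26, and over all genes tested the median size was 0.45. The groups did not overlap for 12 Trav segments that were higher and 7 that were lower in the mutant cells, where 36.8% of all genes tested did not overlap. A p that misses the threshold does not show that the shares were equal. Trav16 differed by 0.25 ± 0.18 and Trav16n by 0.29 ± 0.17, both slightly higher in the mutant cells (edgeR adjusted p = 0.39 and 0.249). Trav14d-3-dv8 differed by -0.21 ± 0.17 (edgeR adjusted p = 0.432). Leaving out WT CD4 SP replicate 1 gave 1 call, Trav12-3 with 0.63 ± 0.18 (edgeR adjusted p = 0.0316). Trav12-3 was singled out after its values were seen. As levels per library, 26 Trav segments were lower and 0 higher in the mutant CD8 SP cells (17.7% of all genes called), and the median log2 level difference of the Trav segments tested was -0.74.

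Between the mutant populations the same test called no segment either. For Thpok-RKF- CD4+CD8+ against Thpok-RKF- CD8 SP cells, edgeR's quasi-likelihood F test called 0 of 76 Trav segments, with 2.44% of all genes tested called. There were 4 segments at an unadjusted p under 0.05 (11.0% of all genes) and 1 call by DESeq2 (5.33% of all genes), Trav21-dv12, named after its value was seen. Between the CD4+CD8+ cells with and without Thpok-RKF the edgeR test called 0 of 76, with 0.955% of all genes called. There were 8 at an unadjusted p under 0.05 (14.3% of all genes) and 0 calls by DESeq2 (4.56% of all genes). Trav14-1 had the smallest edgeR adjusted p in that comparison, 0.233, with shares of 5.72%, 6.55% and 6.32% in Thpok-RKF+ and 5.55%, 4.34% and 4.53% in Thpok-RKF- CD4+CD8+ libraries, a log2 difference of 0.37 ± 0.14. Its groups did not overlap, as was the case for 18 of 76 Trav segments tested (6 higher, 12 lower), where 16.5% of all genes tested did not overlap. Leaving out Thpok-RKF+ CD4+CD8+ replicate 1 gave 1 call, Trav6d-4 with -1.87 ± 0.48 (edgeR adjusted p = 0.0286), also named after its value was seen. Trav16 stayed low in both populations, with 1.60%, 1.30% and 1.30% in Thpok-RKF- and 1.42%, 1.202% and 1.22% in Thpok-RKF+ CD4+CD8+ libraries.

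The whole Trav profile placed each mutant library by the WT groups. The distance of a library from a WT group was taken as the summed absolute difference between its shares and the mean shares of the group, halved, in percentage points, with the library itself left out of its own group's mean. The 3 WT CD8 SP libraries lay 5.35 to 6.44 points from their own group and 19.96 to 22.4 from WT CD4 SP. WT CD4 SP libraries lay 6.27 to 7.97 points from their own group and 19.6 to 23.8 from WT CD8 SP. All 9 mutant libraries lay nearer to WT CD4 SP, at 9.44 to 13.3 points, than to WT CD8 SP, at 17.7 to 23.2. They were also all farther from WT CD4 SP than any WT CD4 SP library was. The distances share the WT means and are given as a description with no test.

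**Figure D3:**
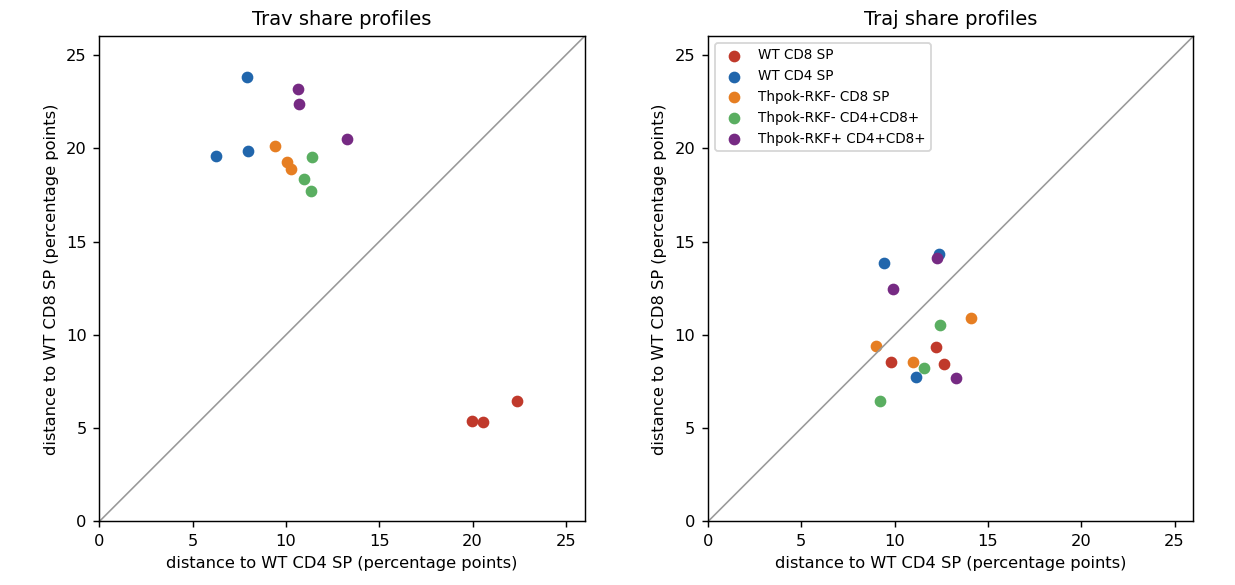
Distance of each library's shares from the mean of WT CD4 SP (horizontal) and of WT CD8 SP (vertical), in percentage points, for Trav (left) and Traj (right). The line marks equal distance. By Trav shares the 9 mutant libraries lie above the line with the WT CD4 SP libraries, and by Traj shares the groups mix around it.

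A summed share gave 1 number per library for the contrast between WT CD8 SP cells, from I-Ab-/-, and the 12 libraries from B2m-/- hosts, in which cell type and host cannot be told apart. Segments numbered Trav16 to Trav23 hold the Trav16 copies and the higher-numbered families, most of which lie toward the joining array. Trav16n and Trav16d-dv11 lie farther from it, in the block Trav8d-2 to Trav7-3 of the order given below, so the sum does not measure position. Trav16 to Trav23 together held 8.55% ± 0.852 of Trav counts in the 12 libraries from B2m-/- hosts and 13.9% ± 0.604 in the 3 from I-Ab-/- (SD). The lowest of the latter, 13.3%, was above the highest of the former, 9.54% (two-sided exact permutation test, p = 0.0022, the smallest these libraries can give, and 0.0152 after Benjamini-Hochberg adjustment over 10 such tests). These tests permuted libraries that come from few sorted populations. Each p therefore gauges the spread among libraries and not among populations. The 9 mutant libraries held 8.92% ± 0.606 and the 3 WT CD4 SP libraries 7.43% ± 0.126 (exact permutation p = 0.00455, adjusted p = 0.0152). Trav17 to Trav23 without the Trav16 family held 3.22% to 3.85% in WT CD8 SP, 4.09% to 4.33% in WT CD4 SP and 3.84% to 5.82% in the mutant libraries, so WT CD8 SP lay below WT CD4 SP there and reached the lowest mutant library. The Trav total was 397 ± 51.4 CPM in the mutant and 606 ± 93.4 in the WT CD4 SP libraries (exact permutation p = 0.00455, adjusted p = 0.0152). Both differences between mutant and WT CD4 SP libraries missed the threshold without WT CD4 SP replicate 1, 2 or 3, with an adjusted exact permutation p of 0.0606 each time and fewer arrangements. With labels permuted within replicate numbers, all 3 called differences had an adjusted exact permutation p of 0.0521, and without the libraries numbered 1 it was 0.179 to 0.238. Both settings leave fewer arrangements, so the smallest p that they can give is larger. A missed threshold there does not show that a difference was weaker. The other 7 tests, on the effective numbers, the mean Traj number and the Trav total by host, gave adjusted p from 0.586 to 0.971.

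The position of segments in the locus was looked at after the shares were seen and has no test. Across the 76 Trav segments tested, which share their libraries, the Spearman correlation of the log2 difference in share with the order in the locus was weak. It was 0.11 between the WT groups. For the mutant CD8 SP cells it was 0.19 relative to WT CD8 SP and 0.17 relative to WT CD4 SP. Sums over stretches of the locus are given as a description. The 89 Trav members were put in the order of the RefSeq annotation of GRCm38.p6 and cut into 4 blocks of 22 or 23. The block farthest from the joining segments, Trav1 to Trav9d-4, held 14.98% to 16.7% of Trav counts in WT CD4 SP and 15.1% to 16.6% in WT CD8 SP libraries. It held 12.6% to 13.97% in Thpok-RKF- CD8 SP, 11.4% to 13.4% in Thpok-RKF- CD4+CD8+ and 9.34% to 10.3% in Thpok-RKF+ CD4+CD8+ libraries. Every mutant library was thus below every WT library in that block, and the Thpok-RKF+ libraries were the lowest. The next block, Trav8d-2 to Trav7-3, held 21.6% to 24.6% in the WT and Thpok-RKF- CD8 SP libraries, 20.5% to 21.4% in Thpok-RKF- CD4+CD8+ and 19.4% to 20.4% in Thpok-RKF+ CD4+CD8+ libraries. In the block after it, Trav6-4 to Trav15-2-dv6-2, every mutant library (40.8% to 44.2%) was above every WT library (38.1% to 39.9%). The block nearest the joining segments, Trav3-3 to Trav23, held 21.7% to 22.1% and 21.9% to 23.4% in the WT groups, 19.1% to 22.98% in Thpok-RKF- CD8 SP, 25.3% to 25.6% in Thpok-RKF- CD4+CD8+ and 26.1% to 26.3% in Thpok-RKF+ CD4+CD8+ libraries. Both CD4+CD8+ groups lay above the other 9 libraries there.

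**Figure D4:**
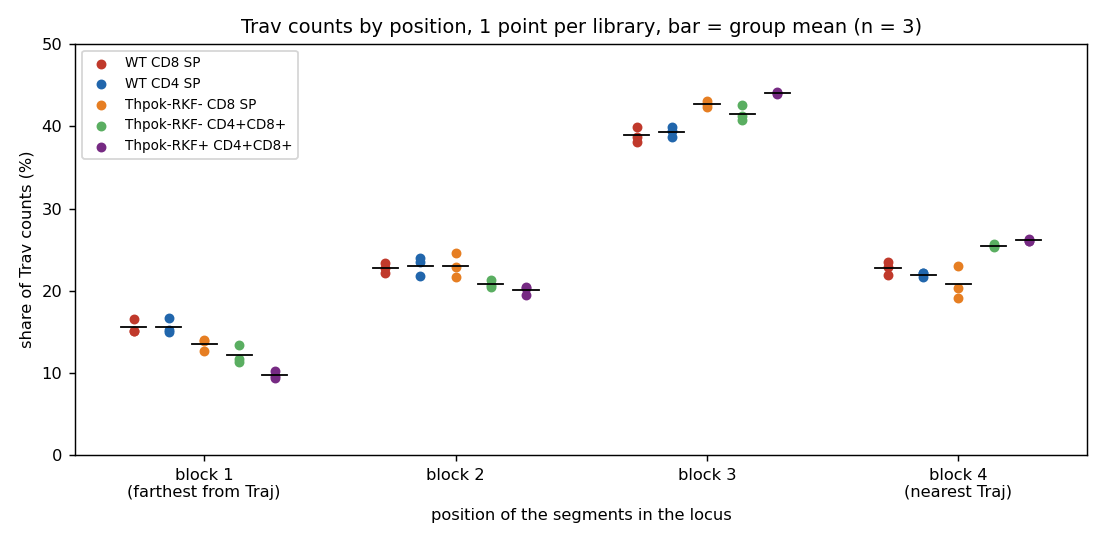
Share of Trav counts in each of 4 blocks of the Trav members, ordered along the locus from the farthest to the nearest to the joining segments. Points are libraries, coloured by group, and bars are means of 3. In block 1 the mutant groups lie below the WT groups, and in block 4 both CD4+CD8+ groups lie above the rest.

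Among single segments, 2 of 89 members took a lower share in 9 of 9 mutant libraries than in any WT library, and 1 took a higher share. Over all genes tested, 1.24% were lower and 1.61% higher in this way, so the counts among the members were near the background. The lower ones were Trav1, the segment at the far end of the locus, and Trav3-1, which lies close to it. Trav1 held 1.48%, 1.33% and 1.60% in WT CD4 SP and 1.21%, 1.42% and 1.30% in WT CD8 SP libraries. It held 0.892%, 0.801% and 1.06% in Thpok-RKF- CD8 SP, 0.854%, 0.868% and 0.786% in Thpok-RKF- CD4+CD8+ and 0.481%, 0.759% and 0.365% in Thpok-RKF+ CD4+CD8+ libraries. Trav3-1 held 1.49% to 2.12% in the WT libraries and 0.547% to 1.45% in the mutant ones. The higher one was Trav12-3, with 1.51% to 2.14% in the WT and 2.18% to 2.76% in the mutant libraries. These 3 were picked for this pattern among all members after the values were seen. The log2 difference of Trav1 in Thpok-RKF- CD8 SP against WT CD4 SP cells was -0.68 ± 0.26 (edgeR adjusted p = 0.0868).

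For joining segments no difference in share was called. Between the WT groups, edgeR's quasi-likelihood F test called 0 of 56 Traj segments (18.0% of all genes). There were 2 at an unadjusted p under 0.05 (30.5% of all genes) and 0 by DESeq2 (23.7%). The groups did not overlap for 4 Traj segments that were higher and 8 lower in WT CD4 SP (36.2% of all genes). The edgeR test called 0 of 56 in the other 4 comparisons too, where 18.4%, 17.4%, 2.44% and 0.955% of all genes were called. At an unadjusted p under 0.05 there were 1, 0, 1 and 0 (29.8%, 31.4%, 11.0% and 14.3% of all genes). DESeq2 called 0 in each (24.3%, 24.2%, 5.33% and 4.56%). The median SE of a log2 difference was 0.53 for Traj and 0.26 for Trav segments, so a smaller difference was needed for a call among Trav. In every group the Traj counts centred on the same segments. Traj17 held a mean share of 9.63%, Traj20 8.24%, Traj19 8.16%, Traj18 7.61% and Traj21 6.43%. Traj11 to Traj20 together held 41.9% to 48.7% in each library. Traj31 to Traj40 held 7.78% to 11.6% in WT CD4 SP libraries and 5.35% to 8.04% in the other 12, where the ranges overlap.

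**Figure D5:**
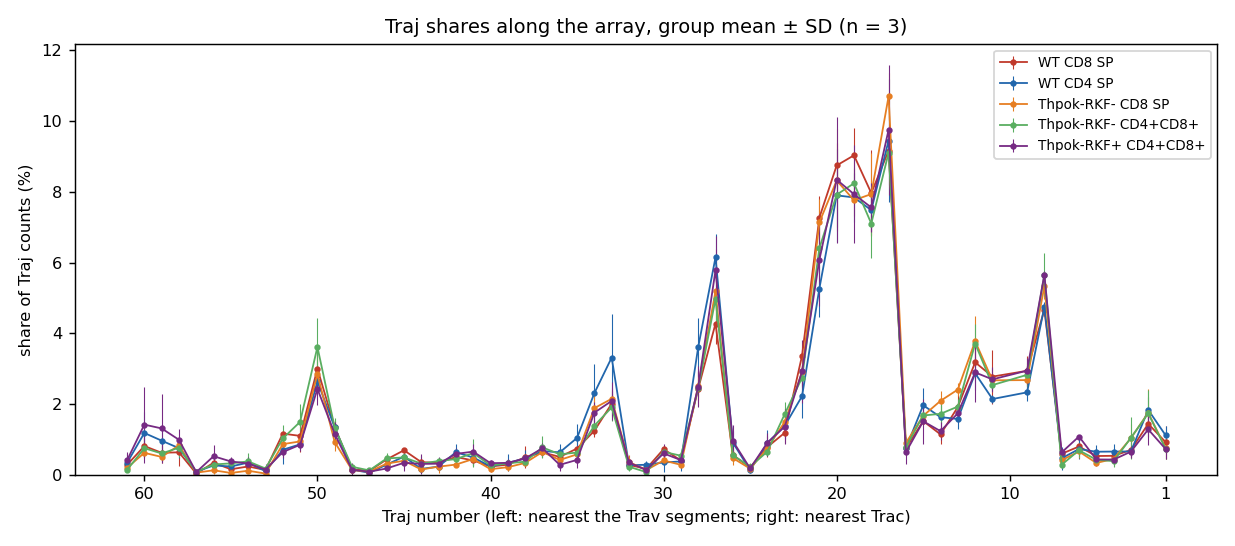
Mean share of each Traj segment (percentage of Traj counts) by its number, from Traj61 next to the variable segments on the left to Traj1 next to Trac on the right, with SD over 3 libraries. The 5 groups follow the same peaks, the highest at Traj17.

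The amount of Traj counts differed with the library number. Per 100 Trav counts it ran from 12.8 to 31.8, and the library numbered 1 was the highest of its group in 5 of 5 groups. Read pairs on no annotated feature were also highest in number 1 in 5 of 5 groups, from 5.09% to 11.2% of counted pairs over all libraries, and so was Jun, an immediate early gene. Their part in Traj counts was not tested. A read on a Traj row can come from a spliced alpha chain message or from unspliced RNA of the array, and counts per gene do not separate them. Traj length, 29 to 72 bases with coding sequence alone, had a Spearman correlation of -0.18 with the mean share across the 60 segments, which are not independent.

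Of the segments of the invariant receptors, the Trav11 rows held few counts and the others did not. Trav11, the variable segment of NKT cells in many strains, held 20 counts in all, Trav11d held 13 and Trav11n 550. Trav11n took 0.0466% to 0.352% of Trav counts over the 15 libraries, and had its lowest mean in WT CD8 SP libraries, at 0.0466% to 0.142%, where no difference was called between the WT groups (log2 difference 0.99 ± 0.56, edgeR adjusted p = 0.258). Trav11 and Trav11d are 99.7% identical, so their split is uncertain. Of their read-length stretches, 1 of 243 was unique for Trav11 and 0 of 242 for Trav11d, against 243 of 243 for Trav11n. The low counts of Trav11 and Trav11d therefore do not show how much these segments were used. Traj18, the partner segment in NKT receptors, took 6.04% to 9.34% of Traj counts with no difference called, as one of the 5 most used Traj segments. Trav1 and Traj33 form the MAIT receptor: Traj33 took 4.35%, 1.95% and 3.63% in WT CD4 SP and 1.46% to 2.71% in the other libraries (edgeR adjusted p = 0.189 against WT CD8 SP). Of the list for invariant NKT and MAIT cells, Zbtb16, the factor that marks both cell types, was at most 1.87 CPM and Klrb1c, the NK1.1 receptor gene, at most 3.47 CPM. The summed level of the list was 176 to 241 CPM in WT CD4 SP, 638 to 661 in WT CD8 SP, 292 to 348 in Thpok-RKF- CD8 SP, 418 to 549 in Thpok-RKF- CD4+CD8+ and 513 to 574 in Thpok-RKF+ CD4+CD8+ libraries. Most of it was Il2rb, a cytokine receptor chain that other T cells also express, with 105 to 610 CPM. Of the rest of the list, Il18r1 was 18.3 to 67.0 CPM in the mutant and 2.38 to 11.2 CPM in the WT libraries. Slamf1 was 56.4 to 89.5 CPM against 35.2 to 54.8 CPM, also higher in every mutant library, and Tbx21 was at most 10.8 CPM. The part of such cells in the shares was not tested.

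Of 23 genes of the receptor and of its recombination fixed as a list, 3 rose and 1 fell in WT CD4 SP against WT CD8 SP cells, a share close to the 18.0% of all genes called. These are levels per library, not shares, by the same edgeR test. The median log2 difference over the list was 0.12, and over all genes tested it was -0.03. Trac itself rose by 0.68 ± 0.17 on the log2 scale (2141 ± 377 against 1339 ± 173 CPM, SD, n = 3, edgeR adjusted p = 0.0131). Trbc1 rose by 0.55 ± 0.15 and Cd247, the zeta chain of the receptor complex, by 0.32 ± 0.09, and Cd3e fell by 0.36 ± 0.09. In Thpok-RKF- CD8 SP cells, 3 rose and 1 fell against WT CD8 SP, and 3 rose and 4 fell against WT CD4 SP, where 18.4% and 17.4% of all genes were called. The largest was Dntt, which encodes the enzyme that adds untemplated bases at the joins. It was 107, 187 and 197 CPM in Thpok-RKF- CD8 SP, 12.2, 15.2 and 18.0 CPM in WT CD8 SP and 20.1, 20.3 and 13.0 CPM in WT CD4 SP libraries. The log2 difference was 3.43 ± 0.30 against WT CD8 SP (edgeR adjusted p = 2.02e-06) and 3.20 ± 0.30 against WT CD4 SP (edgeR adjusted p = 5.79e-06).

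Dntt was lower in Thpok-RKF- CD4+CD8+ cells, with 31.2, 44.1 and 54.1 CPM (log2 difference from Thpok-RKF- CD8 SP -1.92 ± 0.28, edgeR adjusted p = 0.00138), the only listed gene called there. The summed level of the list for immature CD4+CD8+ thymocytes, which holds Dntt, was 84.4 to 108 CPM in WT CD8 SP, 184.7 to 239 in WT CD4 SP and 281 to 329 in Thpok-RKF- CD8 SP libraries. The part of such cells in the Trav results was not tested. Rag1, a recombinase gene, stayed at or below 7.39 CPM and Ptcra, a gene of earlier thymocytes, at or below 0.952 CPM in every library. Trac fell by 0.89 ± 0.17 in Thpok-RKF- CD8 SP against WT CD4 SP cells (edgeR adjusted p = 0.0027), the same direction as the Trav total. Xrcc5 and Xrcc6, the Ku proteins of end joining, fell in that comparison by 0.60 ± 0.16 and 0.57 ± 0.17 (edgeR adjusted p = 0.0178 and 0.0347). With Thpok-RKF, Cd247 was 2616 ± 211 CPM against 436 ± 20.3 CPM in Thpok-RKF- CD4+CD8+ cells (SD, n = 3), a log2 difference of 2.58 ± 0.10 (edgeR adjusted p = 1.87e-09). It was the only one of the 23 genes called in that comparison.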

How the data were processed

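RNA was measured in 15 libraries of sorted mouse thymocytes. Per the labels' protocols, RNA came from an RNeasy Plus Micro kit, libraries from SMARTer Ultra Low Input reagents, and reads were 101 bp pairs. The submitters' processing notes name STAR and HTSeq, bcl2fastq 2.17 and Trimmomatic, the build mm39 and DESeq2. What each was used for, and the annotation, strand setting and treatment of reads that match several segments, were not given in the sources used here. The values are unnormalised counts of reads per gene as deposited, and the counts of the 15 library files were identical to those of the table. A further 3 columns of the table carry no sample's label and were not used. The 5 summary lines that name no gene, 15.9% to 21.0% of all counted read pairs, were left out.

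The edgeR 4.0.16 quasi-likelihood F test (R 4.3.3) was fitted to all genes and libraries, with TMM normalisation and a filter (minimum count 10, minimum total 15) that kept 16550 of 53762 genes. For Trav and Traj rows the offset was the Trav or Traj total of the library. Standard errors are the log2 difference over the square root of F. Adjustment was by Benjamini-Hochberg over all genes, and the procedure was tested on simulated data. The 5 comparisons follow the labels' groups. The 10 exact permutation tests were two-sided. Named were the invariant receptor segments, the Trav14 and Trav9 members, the 5 most used Trav and Traj segments, and called segments with a mean share of at least 0.5% and no overlap, up to 5 rises and 5 falls between WT groups and 3 of each elsewhere. The members and lists were chosen with earlier results of these data known. Replicates of a group differed by more than sampling noise (chi-square over degrees of freedom 1.83 to 10.8). Alternatives were levels by TMM or RLE, no low-count filter, DESeq2 1.42.0, only the compared groups, the replicate number as a block, families, no libraries numbered 1, and each library left out.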

Additional observations from a re-analysis of the deposited data

How the results depend on the processing

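Over the 27 calls of named segments, the direction was kept under every alternative except for Trav3-3 between WT groups, which was 0.15 as a level by TMM and 0.17 by RLE. All 27 stayed past the threshold with the replicate block and with DESeq2, 23 without the libraries numbered 1, 22 with only the compared groups, 19 as levels by TMM or RLE and 16 without the low-count filter. Of 162 fits that left out 1 library, 123 kept the call and 0 reversed it.

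Counts of Trav calls moved as follows. Without the low-count filter they were 11 between WT groups and 6 for Thpok-RKF- CD8 SP against WT CD8 SP, with more genes in the adjustment. Summed to families they were 8 and 8. As levels, 26 (TMM) or 25 (RLE) were called for Thpok-RKF- CD8 SP against WT CD4 SP. For Traj there was 1 call between WT groups (Traj34, TMM and RLE) and 1 for Thpok-RKF- CD8 SP against WT CD8 SP (Traj14, RLE). DESeq2 gave 2 for Thpok-RKF- CD8 SP against WT CD4 SP and 1 between the Thpok-RKF- groups. Without the libraries numbered 1 there were 12 for Thpok-RKF- CD8 SP against WT CD8 SP, 1 against WT CD4 SP (Trav14-3) and 2 for Thpok-RKF+ against Thpok-RKF- CD4+CD8+ (Trav14-1 and Trav6d-4). With 1 library left out, Trav calls ran from 11 to 18 between WT groups, 9 to 13 for Thpok-RKF- CD8 SP against WT CD8 SP, and 0 to 1 against WT CD4 SP and between the CD4+CD8+ groups. Apart from the number of genes or samples in a fit, the cause was not tested.

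With 1 library left out, the difference in the Trav16 to Trav23 share ran from -5.68 to -5.08 points by host (the I-Ab-/- libraries all being WT CD8 SP) and from 1.42 to 1.65 for mutant against WT CD4 SP, and the Trav total from -237.3 to -155.8 CPM for mutant against WT CD4 SP. The last 2 were no longer called when any 1 of the 3 WT CD4 SP libraries was left out, which leaves fewer arrangements. Differences by host changed sign for the mean Traj number (-0.26 to 0.31), the effective number of Traj (-0.26 to 0.37) and of Trav segments (-0.16 to 0.51), none of which was called. Without the libraries numbered 1, the 3 called values were -5.56, 1.21 and -219.5 and no longer called, and the mean Traj number by host was -0.11 and the effective number of Trav segments -0.57. That setting also leaves fewer arrangements.

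The correlation between same-numbered libraries of their deviations from the group means exceeded 0.1 for at most 2 of 3 numbers in any comparison. It ran from -0.02 to 0.17 between WT groups, 0.06 to 0.28 for Thpok-RKF- CD8 SP against WT CD8 SP, 0.04 to 0.10 against WT CD4 SP, 0.08 to 0.44 between the Thpok-RKF- groups and 0.05 to 0.22 between the CD4+CD8+ groups. Of 6 libraries, 3, 5, 6, 3 and 4 correlated best with their own number in the 5 comparisons. Whether same-numbered libraries belong together was not tested, and the main fit treated them as unpaired. With the replicate block, Trav calls were 21 between WT groups and 20 for Thpok-RKF- CD8 SP against WT CD8 SP, and 0 elsewhere. Permuting within blocks left the 3 called values, -5.39, 1.49 and -209.7, at an adjusted exact permutation p of 0.0521. Fewer arrangements are possible within blocks, so the smallest p they can give is larger.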
